A study of Mus musculus with 17 samples.

Results

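The Fc gamma receptors of the mouse, the 2 adaptor chains that carry an immunoreceptor tyrosine-based activation motif (ITAM) in myeloid cells, and the kinase that docks on that motif were followed in sorted mouse eosinophils. The 7 genes were Fcgr1, Fcgr2b, Fcgr3, Fcgr4, Fcer1g, Tyrobp and Syk, chosen by name from the platform annotation. All 7 were measured, each by 1 probe set with no other gene symbol, among 22180 genes with a symbol of their own, and no filter on low values removed any of them.

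Fc receptors bind the constant part of antibodies and so link immune complexes to effector cells. The activating receptors Fcgr1 (CD64), Fcgr3 (CD16) and Fcgr4 have no long signalling tail of their own and rely on the common gamma chain, Fcer1g. Tyrobp (DAP12) serves other activating receptors in the same way. Src family kinases phosphorylate the tyrosines of the ITAM, and Syk binds them through its paired SH2 domains and passes the signal on. Fcgr2b (CD32B) carries an inhibitory motif (ITIM) in place of an ITAM and recruits phosphatases that oppose the same cascade. Pirb, the gene deleted in this study, encodes another ITIM receptor of myeloid cells.

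All mice carried the CC10-IL13 transgene, in which the promoter of a lung airway gene directs an inducible interleukin-13 (IL-13) switched on by doxycycline (Dox) in the food. Mice were Pirb-/- or Pirb+/+ littermates of both sexes, aged 6 to 8 weeks, and Dox was given for 2 weeks. Marrow eosinophils came from wildtype mice without Dox (2 arrays), knockout mice without Dox (3 arrays), wildtype mice with Dox (3 arrays) and knockout mice with Dox (3 arrays). Esophageal eosinophils came from wildtype and knockout mice with Dox (3 arrays each), and there was no esophageal group without Dox. Cells were sorted as CD45+, Siglec-F+ and CCR3+. The esophagus was digested with collagenase and the marrow was not, so tissue and digestion cannot be told apart. No label says whether replicates were separate animals or pools, so p-values reflect array-to-array spread, which may be technical in origin.

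The deposited values are log values centred on each probe set, taken here as log2. A value of 0 is about the middle array, and no value is a level. Levels of different genes therefore cannot be ranked, and an absent marker cannot be told from a present one. With RNA pooled over sorted cells, fewer cells of a type and less RNA per cell cannot be told apart. Knockout marrow without Dox replicate 3 stood apart from every other array, with a spread over genes of 0.811 (SD) against 0.25 to 0.59 on the others and a mean correlation of -0.027 with its own group, and results that rest on it are given with and without it. Pirb itself spanned 0.75 to 2.17 in wildtype esophagus and 0.77 to 1.2 in knockout esophagus, and -0.55 to 0.01 and -0.79 to -0.01 in the corresponding marrow with Dox. These ranges overlap between genotypes. Where the probes lie relative to the deletion is not stated in any source used, and near-identical Pira genes exist, so Pirb does not check the genotype labels, and every genotype difference below rests on those labels alone. Of the 8 measured eosinophil markers, Epx (eosinophil peroxidase), Prg2 and Prg3 (granule proteins) were lower in wildtype esophagus than in marrow with Dox. They differed by -3.50, -3.53 and -5.22 (limma, adjusted p = 0.000187, 5.3e-05 and 5.0e-05), while Alox15 (a lipoxygenase) was higher by 2.95 (adjusted p = 0.00697). The other markers of the list, and single values in knockout mice, are not given, so the markers named do not stand for the whole list. The mean of the 8 ran from 0.194 to 0.448 in wildtype marrow with Dox and from -1.008 to -0.375 in wildtype esophagus. In knockout mice the ranges met, at 0.088 to 0.51 in marrow with Dox and -0.403 to 0.102 in esophagus.

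Promoter sequences are shown for the 2 genes that differed most between the tissues, Syk and Fcgr1, and for Fcgr4. They are the 250 bases before a RefSeq start site in GRCm38.p6, read 5′ to 3′ on the gene's strand. They lie at chr3:96293970-96294219 (minus strand) for Fcgr1, chr1:171018676-171018925 (plus strand) for Fcgr4, and chr13:52583187-52583436 and chr13:52596632-52596881 (plus strand) for the upstream and downstream starts of Syk. Capitals mark GAGGAA or its reverse complement TTCCTC, the core bound by PU.1 (a master factor of myeloid cells), and, in Fcgr1, a match to TTCNNNGAA, the GAS element.
Fcgr1: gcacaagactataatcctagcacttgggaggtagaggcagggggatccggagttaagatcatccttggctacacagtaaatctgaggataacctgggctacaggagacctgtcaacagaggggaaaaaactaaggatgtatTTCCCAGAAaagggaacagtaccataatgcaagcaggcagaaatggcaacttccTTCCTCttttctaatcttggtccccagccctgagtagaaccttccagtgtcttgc
Fcgr4: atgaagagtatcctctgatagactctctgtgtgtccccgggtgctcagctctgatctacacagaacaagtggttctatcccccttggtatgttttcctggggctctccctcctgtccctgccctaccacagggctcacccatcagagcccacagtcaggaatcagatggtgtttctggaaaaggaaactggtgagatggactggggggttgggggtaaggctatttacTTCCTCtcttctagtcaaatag
Syk upstream start: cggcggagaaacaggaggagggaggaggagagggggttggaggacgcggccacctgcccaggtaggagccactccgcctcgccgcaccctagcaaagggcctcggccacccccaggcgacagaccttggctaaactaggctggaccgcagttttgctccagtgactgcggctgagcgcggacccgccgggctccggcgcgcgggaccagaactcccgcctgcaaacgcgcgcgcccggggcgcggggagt
Syk downstream start: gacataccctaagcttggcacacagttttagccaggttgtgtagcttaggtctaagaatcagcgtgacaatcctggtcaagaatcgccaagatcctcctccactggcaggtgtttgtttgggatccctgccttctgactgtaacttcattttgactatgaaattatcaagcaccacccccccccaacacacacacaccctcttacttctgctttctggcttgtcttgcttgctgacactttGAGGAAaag

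RefSeq promoters were found for 6 of the 7 genes, 8 promoters in all. In all, 6 motifs were searched for on both strands among 32851 promoters of that length. GAGGAA stood in 5 of the 8 promoters, those of Fcgr1, Fcgr4, both starts of Fcgr3 and the downstream start of Syk, and in 23.3% of all promoters. TTCNNNGAA stood in the Fcgr1 promoter alone, as TTCCCAGAA at position -109 from the start, and in 7.02% of all promoters. GGGA and CC with 4 bases between them, an NF-kB-like pattern, stood in 5 of the 8 (Fcer1g, Fcgr2b, Fcgr4 and both Fcgr3 starts) and in 17.6% of all. The promoters of the Fcgr3 starts overlap, so the same TTCCTC site (at -6 and -15) and NF-kB-like site (at -151 and -160) count in both. TTC and GAA with 4 bases between them, the STAT6 spacing, were in none of the 8 and in 5.85% of all. Neither GATAAG nor TTGCNNAAT, the patterns of the zinc-finger GATA factors and of C/EBP, was in any of the 8, against 6.55% and 2.11% of all promoters. The upstream Syk promoter was the most GC-rich of the 8 at 71.6%, against 47.6% for the downstream one and a median of 52.4% over all promoters. A match is a string of letters, and no binding was measured here.

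Syk, the kinase of the cascade, was higher in esophageal than in marrow eosinophils in both genotypes. In wildtype mice its values were 2.06, 0.97 and 1.30 in esophagus and -0.09, -0.16 and 0.01 in marrow with Dox. In knockout mice they were 1.78, 1.73 and 1.61 in esophagus and -0.01, 0.11 and 0.03 in marrow with Dox. Every esophageal array lay above every marrow array, those without Dox included, where Syk ran from -0.60 to -0.04. The wildtype esophageal arrays were spread more widely (SD 0.56) than the knockout ones (SD 0.09). The difference was 1.53 ± 0.22 (SE), 2.88-fold, in wildtype mice (limma, adjusted p = 0.000822) and 1.67 ± 0.22, 3.17-fold, in knockout mice (adjusted p = 0.000316). By p-value Syk stood at rank 241 and rank 246 of the 22180 genes. It passed the threshold of 0.05 with any 1 of the 17 arrays left out and in each of the other 8 settings of the fit, in both genotypes.

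**Figure D1:**
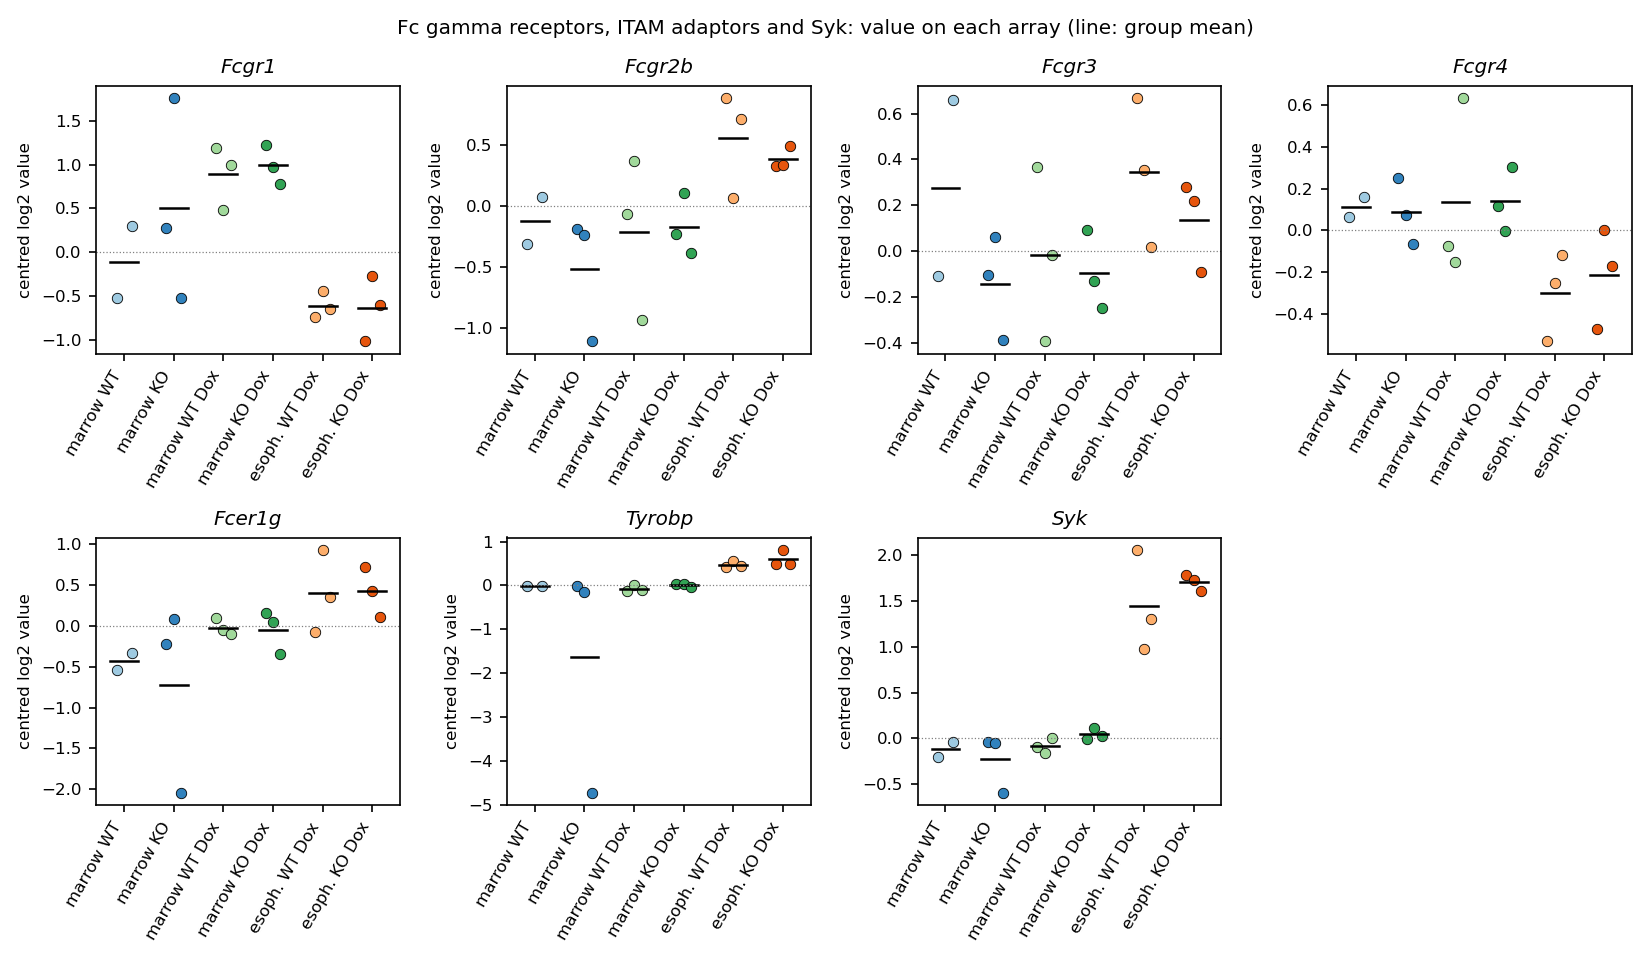
Deposited centred value (taken as log2) of each of the 7 genes (panels) on each of the 17 arrays (points). Groups run along the horizontal axis, each with its mean. Syk sits at 0.97 to 2.06 on the 6 esophageal arrays and at or below 0.11 on all marrow arrays, the group means of Fcgr1 are highest in marrow with Dox, and 1 knockout marrow array without Dox reaches -4.73 for Tyrobp.

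Fcgr1, the high-affinity receptor for monomeric IgG, went the other way. It read 1.19, 0.48 and 0.99 in wildtype marrow with Dox and -0.74, -0.45 and -0.65 in wildtype esophagus. In knockout mice it read 1.23, 0.97 and 0.78 in marrow with Dox and -1.02, -0.28 and -0.61 in esophagus. All 6 esophageal arrays were negative and all 6 marrow arrays with Dox were positive. The marrow arrays without Dox were the most scattered and overlapped both, at -0.53 and 0.30 in wildtype and 0.28, 1.76 and -0.52 in knockout mice. Esophagus was below marrow with Dox by -1.50 ± 0.44 in wildtype mice (limma, adjusted p = 0.0373) and by -1.63 ± 0.44 in knockout mice (adjusted p = 0.0303). This call is near the threshold. It was lost without any 1 of the 6 wildtype arrays compared or knockout marrow with Dox replicate 2 in the wildtype comparison (adjusted p up to 0.126), and without any 1 of 5 arrays in the knockout comparison (up to 0.114), namely the 3 of marrow with Dox and esophageal replicates 1 and 3. Without the outlying array it was firmer, at adjusted p = 0.00708 and 0.00612.

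Monocyte and macrophage markers moved with Fcgr1 in part. CD64 is a marker of those cells, although Fcgr1 was not on the marker list. The mean centred value of the 13 measured markers ran from 0.388 to 0.555 in wildtype and 0.251 to 0.624 in knockout marrow with Dox, against -0.540 to -0.222 and -0.634 to -0.367 in the matching esophageal arrays. Of the 13, 3 were called lower and 1 higher in wildtype esophagus, and 7 lower and 1 higher in knockout esophagus. Mertk, a receptor for apoptotic cells, was lower, with differences of -2.94 and -3.06 (adjusted p = 0.000326 and 0.000184), while Adgre1, which encodes F4/80 and is carried by mouse eosinophils as well, was higher by 1.64 and 1.68 (adjusted p = 0.00575 and 0.00393). Neutrophil markers moved further between the same arrays. The mean of the 10 ran from 0.002 to 0.396 in marrow with Dox and from -3.547 to -2.630 in esophagus, with 7 called lower and 1 higher in wildtype and 8 lower and 1 higher in knockout mice. Mpo, the myeloperoxidase of neutrophil granules, differed by -5.45 and -5.52 (adjusted p = 6.78e-10 and 4.37e-10). The mean of the 6 measured dendritic cell markers ran from -0.157 to -0.042 in marrow with Dox and from 0.238 to 0.693 in esophagus, with 2 called higher in each genotype. Beside these marker counts, 8.11% of all genes were called higher and 7.06% lower in wildtype mice, and 4.5% and 6.04% in knockout mice. The part of such cells in the differences of Fcgr1, Syk and the other genes given here was not tested.

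Tyrobp, the DAP12 chain, gave a tissue difference whose call turned on a single array of another group. Wildtype esophagus read 0.41, 0.56 and 0.44, and wildtype marrow with Dox -0.12, 0.00 and -0.11. Knockout esophagus read 0.50, 0.82 and 0.49, and knockout marrow with Dox 0.03, 0.02 and -0.03. The tissues did not overlap in either genotype, and the 3 arrays of each group lay close together. The differences, 0.55 ± 0.86 and 0.59 ± 0.86, did not pass in the fit of all 17 arrays (limma, adjusted p = 0.643 and 0.745). The outlying knockout marrow array without Dox, at -4.73 for Tyrobp, enters neither difference but widens the shared estimate of the spread. Only 18 genes were lower than Tyrobp on that array. Without it the same differences had standard errors of 0.09 and passed (adjusted p = 0.000908 and 0.00053).

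Fcer1g, the common gamma chain needed by Fcgr1, Fcgr3 and Fcgr4, was not called between the tissues. It read -0.08, 0.94 and 0.35 in wildtype and 0.73, 0.43 and 0.12 in knockout esophagus. Marrow with Dox read 0.09, -0.05 and -0.10 in wildtype and 0.16, 0.05 and -0.35 in knockout mice. The ranges overlapped in both genotypes, and the differences of 0.42 ± 0.43 and 0.47 ± 0.43 did not pass (limma, adjusted p = 0.466 and 0.572). Fcer1g read -2.05 on the outlying array, and without that array the standard error was 0.23 and the differences still did not pass (adjusted p = 0.161 and 0.183).

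Fcgr3, the activating low-affinity receptor, differed by 0.36 ± 0.24 and 0.23 ± 0.24 between esophagus and marrow with Dox (limma, adjusted p = 0.268 and 0.619). Its arrays overlapped, from -0.09 to 0.67 in esophagus and from -0.39 to 0.37 in marrow with Dox. Fcgr4, the other Fcer1g-dependent receptor, had negative differences, as Fcgr1 did, but did not pass. It ran from -0.53 to 0.00 in esophagus and from -0.15 to 0.63 in marrow with Dox, and differed by -0.44 ± 0.19 and -0.35 ± 0.19 (adjusted p = 0.123 and 0.305). Of the 3 activating receptors, only Fcgr1 passed the test.

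Fcgr2b, the inhibitory receptor, read 0.88, 0.06 and 0.71 in wildtype esophagus and -0.06, 0.37 and -0.94 in wildtype marrow with Dox, where the ranges overlapped. In knockout mice it read 0.33, 0.33 and 0.49 in esophagus and -0.23, 0.11 and -0.39 in marrow with Dox, with no overlap. The differences of 0.76 ± 0.32 and 0.55 ± 0.32 did not pass (limma, adjusted p = 0.114 and 0.344). Fcgr2b and Fcgr3 are closely similar in their extracellular part, and whether their probes share transcripts is not stated in any source used.

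**Figure D2:**
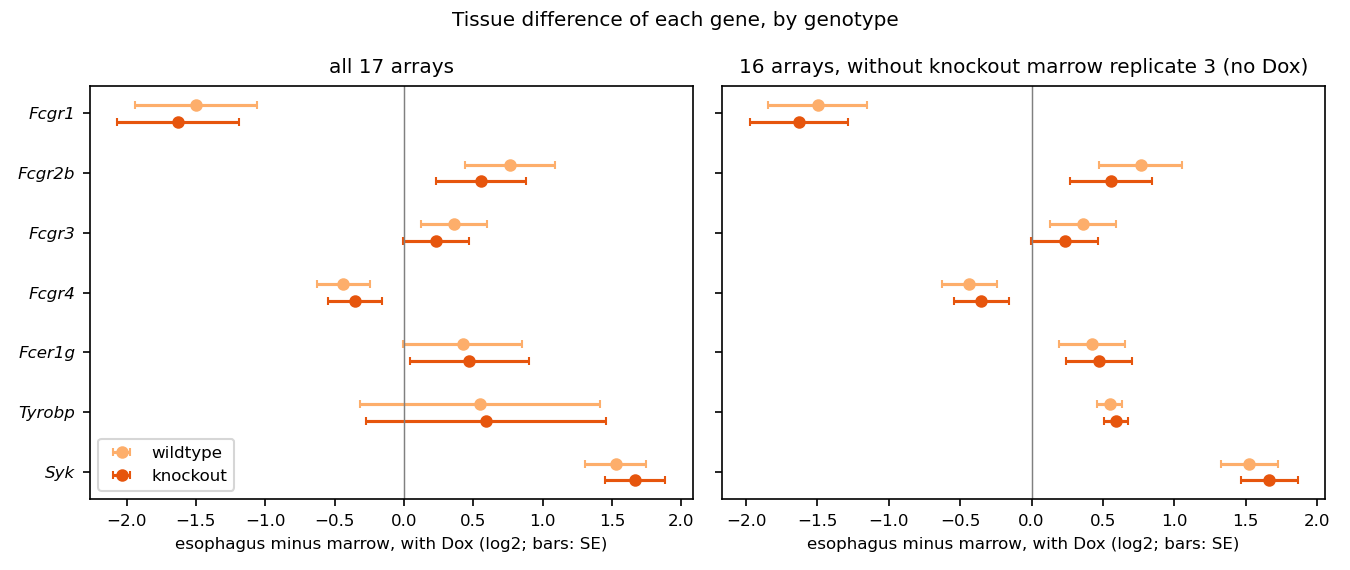
Difference between esophagus and marrow with Dox (log2, horizontal axis) for each of the 7 genes in wildtype and knockout mice. Bars are standard errors of the limma fit, of all 17 arrays in the left panel and without the outlying array in the right. Syk lies to the right of 0 and Fcgr1 to the left in both genotypes. The wide bars of Tyrobp in the left panel show a standard error of 0.86.

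Of the 7 genes, 2 were called in each genotype, Syk higher and Fcgr1 lower. Over all genes 15.2% were called in wildtype mice (8.11% higher and 7.06% lower, and 5.32% and 7.84% after median centring of the arrays, which shifted the median of all genes by -0.104) and 10.5% in knockout mice (4.5% higher and 6.04% lower). Without the outlying array 3 of 7 were called in each, beside a background of 36.5% and 18.8%. The arrays of the tissues did not overlap for 3 of 7 genes in wildtype and 4 of 7 in knockout mice, beside 46.1% and 44.0% of all genes, so the share without overlap is near the background. The median difference over the 7 was 0.42 and 0.47, against 0.136 and 0.060 over all genes, and each of the 7 kept its sign under both other scalings of the arrays. With 3 arrays against 3, an exact permutation test cannot go below p = 0.1, two-sided, and gave p = 0.1 for each gene without overlap.

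The deletion of Pirb was not accompanied by a called change in any of the 7 genes in the esophagus, where 0.347% of all genes were called. None of the 7 reached an unadjusted p under 0.05 by limma, and none was without overlap between genotypes, beside 23.3% of all genes. Syk was 0.26 higher in knockout esophagus, with a 95% interval of -0.21 to 0.73 (adjusted p = 0.542). The interval for Fcgr1 around -0.02 ran from -0.97 to 0.92, and that for Fcgr2b around -0.17 from -0.87 to 0.53. Fcgr3 differed by -0.21 (-0.72 to 0.30), Fcgr4 by 0.09 (-0.33 to 0.50) and Fcer1g by 0.02 (-0.90 to 0.95). For Tyrobp the interval, -1.73 to 2.0 around 0.13, was the widest of the 7. With the outlying array left out, the standard error of the Tyrobp difference fell from 0.86 to 0.09 (adjusted p = 0.334) and that of Fcer1g from 0.43 to 0.23 (adjusted p = 0.959), and still none of the 7 was called. The intervals do not show that the genotypes are alike.

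**Figure D3:**
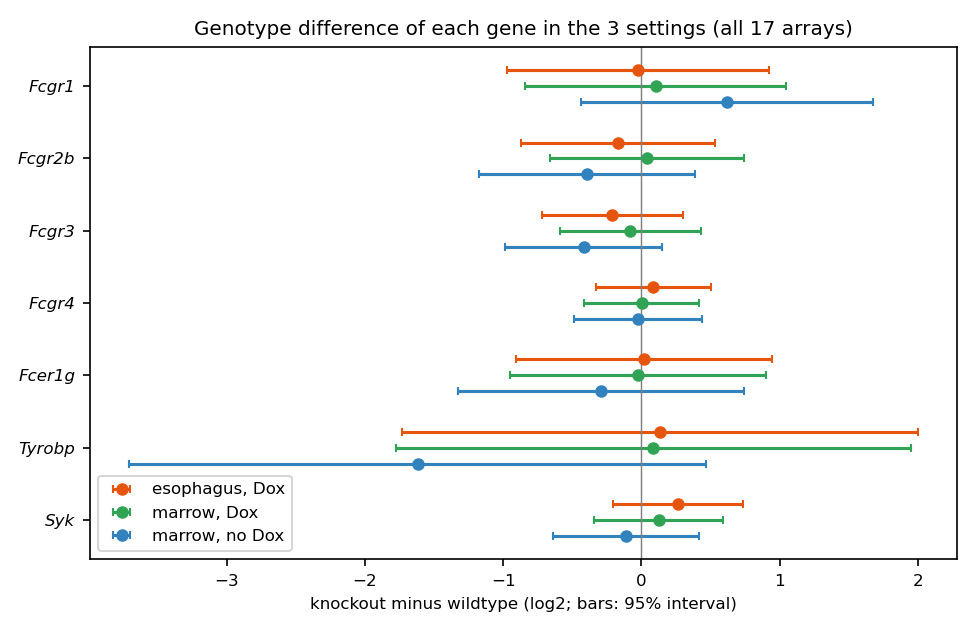
Difference between knockout and wildtype arrays (log2, horizontal axis) for each of the 7 genes in each of the 3 settings, with the 95% confidence interval from the limma fit. Every interval in the esophagus spans 0, with Syk at 0.26 and Fcgr1 at -0.02.

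In marrow with Dox, Syk ran from -0.01 to 0.11 in knockout and from -0.16 to 0.01 in wildtype arrays, ranges that meet only at their ends. Fcgr1 ran from 0.78 to 1.23 and from 0.48 to 1.19, with wide overlap. None of the 7 was called there, and no gene of the 22180 was (0%), with 407 genes at an unadjusted p under 0.05 by limma. In marrow without Dox again none of the 7 and none of all genes (0%) was called. The largest value there, -1.62 ± 0.97 for Tyrobp, rested on the outlying array and was -0.07 without it. Fcer1g changed from -0.29 to 0.37 and Fcgr1 from 0.62 to 1.13 when that array was left out.

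Dox feeding, which switches on IL-13, was compared with no Dox in marrow. Wildtype Fcgr1 was higher with Dox by 1.00 ± 0.49, with all 3 arrays with Dox above both arrays without. That was an unadjusted p of 0.0612 by limma and an adjusted p that rounds to 1.0, and the exact permutation p of 0.2 is the smallest that 3 arrays against 2 can give. Fcer1g was higher by 0.42 with no overlap (-0.10 to 0.09 against -0.54 and -0.33) and did not pass either. None of the 7 was called, beside 0.0225% of all genes, while the arrays of 25.3% of all genes did not overlap. In knockout mice all 7 genes were nominally higher with Dox, by 1.64 ± 0.86 for Tyrobp, 0.68 for Fcer1g, 0.49 for Fcgr1 and 0.27 for Syk, again with none called (background 0.0225%). Syk was the 1 gene of the 7 without overlap there (exact permutation p = 0.1), beside 36.5% of all genes. Without the outlying array those values were 0.08, 0.02, -0.02 and 0.09, and 4 of 7 were above 0.

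Both tissue comparisons have arrays of their own, so their difference could be tested. The genotype by tissue interaction was called for none of the 7 genes and for 0.00451% of all genes. It was 0.14 for Syk, with an interval of -0.53 to 0.80. The genotype by Dox interaction in marrow was called for none of the 7 and for none of all genes (0%).

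The wider pathway was read from a list of 112 genes around these 7, of which 103 were measured. The list was chosen with earlier results of these data known, so its share beside the background is not an independent test. Of the 103, 19 were called between esophagus and marrow with Dox in wildtype mice (10 higher and 9 lower, 18.4%) and 23 in knockout mice (15 higher and 8 lower, 22.3%), against the background of 15.2% and 10.5%. The lists overlapped in 11 genes, 57.9% of the wildtype and 47.8% of the knockout calls. The median difference over the 103 was 0.118 and 0.177, against 0.136 and 0.060 over all genes. Under quantile normalization the wildtype calls split into 11 higher and 6 lower, beside 3.62% and 5.61% of all genes. Without the outlying array the counts were 37 (35.9%) and 35 (34.0%), against 36.5% and 18.8% of all genes. Without wildtype marrow with Dox replicate 1 the wildtype count was 11, and without knockout marrow with Dox replicate 2, or knockout esophageal replicate 1 or 3, the knockout count was 14, 15 and 14. The shares over all genes in those fits are not given.

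Receptors that signal through Fcer1g, Tyrobp or a single-tyrosine ITAM held the largest differences. Of 18 measured, 5 were called higher and 2 lower in wildtype and 6 higher and 1 lower in knockout esophagus. Beside these stand 15.2% and 10.5% of all genes, called in either direction. Clec4e (Mincle), a receptor for mycobacterial and damage-derived glycolipids that pairs with Fcer1g, read 4.0, 4.10 and 4.18 in wildtype and 4.54, 4.41 and 4.44 in knockout esophagus, and -1.08 to -0.18 in marrow with Dox. The esophageal arrays were far above all marrow arrays, by 4.56 ± 0.27 in wildtype (adjusted p = 4.07e-07) and 5.22 ± 0.27 in knockout mice (adjusted p = 9.2e-08). Its neighbour and partner Clec4d rose by 1.87 and 2.74 (adjusted p = 0.0102 and 0.000725). Cd300ld and Cd300lb, activating members of the CD300 family, rose by 2.64 and 1.64 in wildtype and 3.78 and 2.74 in knockout esophagus (adjusted p = 0.0309 or lower). The CD300 genes are close paralogs, so their separate values are uncertain. The wildtype call of Cd300lb was lost without wildtype marrow with Dox replicate 1 or 3 or wildtype esophageal replicate 1, and with only the 2 groups fitted (adjusted p up to 0.0940). Pilrb1, a DAP12 partner, was lower in wildtype esophagus, with a difference of -2.68 (adjusted p = 0.00269, and 0.0699 under quantile normalization). In knockout esophagus Pilrb1 differed by -1.415 (limma, adjusted p = 0.0695). The other receptor called lower in wildtype esophagus was Clec5a, at -2.72 (limma, adjusted p = 0.0266, and 0.262 under quantile normalization). It differed by -1.255 in knockout esophagus (limma, adjusted p = 0.338). The receptor called lower in knockout esophagus was Trem3, at -3.37 (limma, adjusted p = 0.0241). In wildtype esophagus Trem3 differed by -2.63 (limma, adjusted p = 0.0563, and 0.0034 without the outlying array). Neither the Clec5a nor the Trem3 call held in every fit with 1 array left out.

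**Figure D4:**
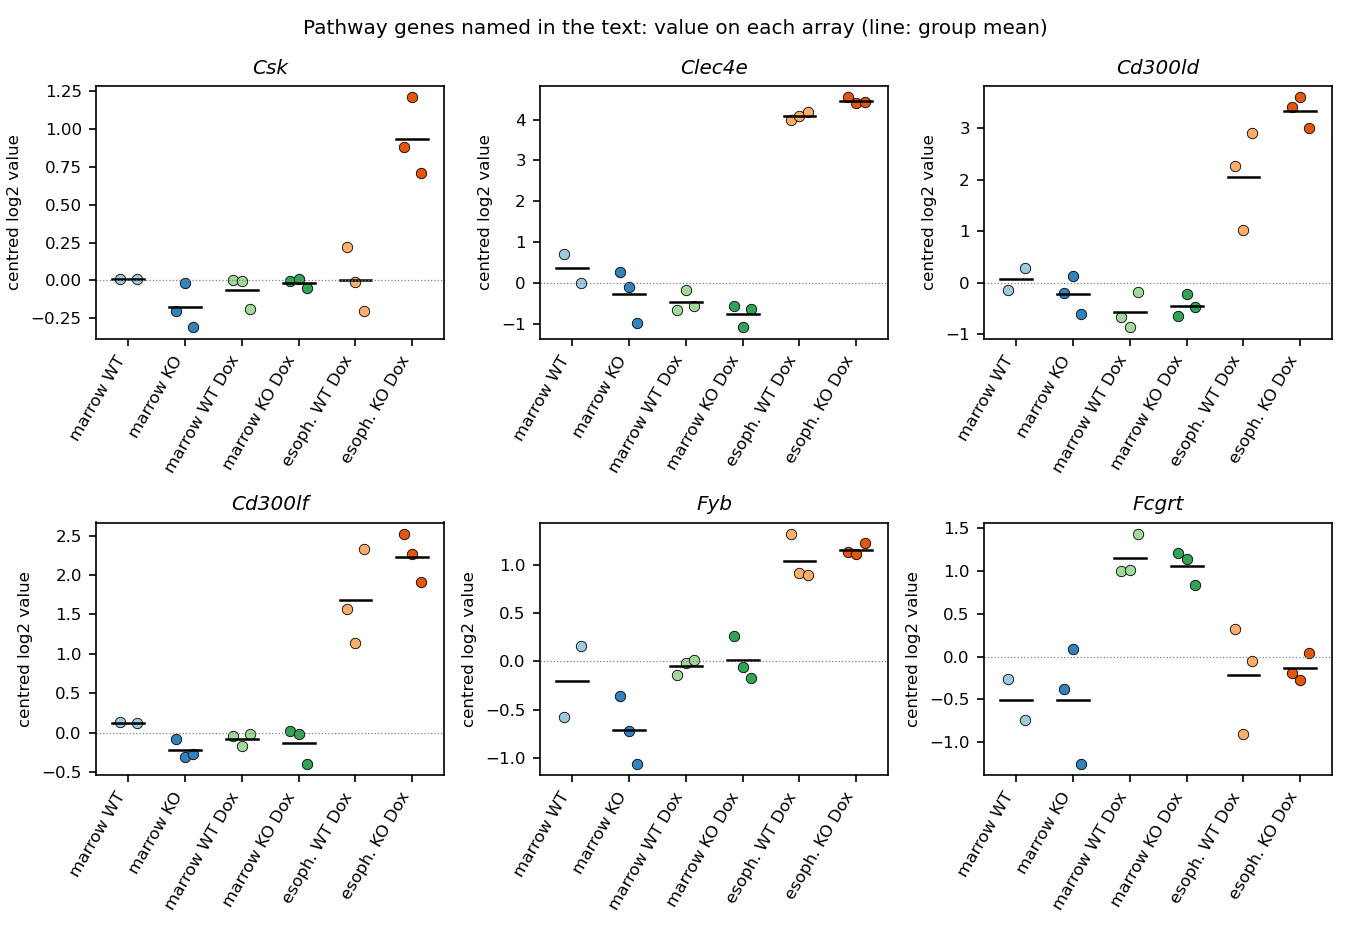
Deposited centred values (taken as log2) of 6 pathway genes on each of the 17 arrays (points), by group, with the group mean. Clec4e lies at 4.0 to 4.54 on the esophageal arrays, Fcgrt is highest in marrow with Dox, and Csk is at 0.71 to 1.21 on the knockout esophageal arrays and at or below 0.22 on all others.

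Among the other Fc receptors, 2 of 12 were higher and 2 lower in wildtype esophagus, and 2 were lower in knockout esophagus. The shares called over all genes were 15.2% and 10.5%. Ms4a2, the beta chain of the high-affinity IgE receptor, fell by 2.05 and by 1.76 (adjusted p = 0.00455 and 0.00902). It is also 1 of the 9 mast cell and basophil markers, whose mean was 0.122 to 0.351 in marrow with Dox and -1.111 to -0.938 in esophagus. Their part in the Ms4a2 difference was not tested, and the knockout call was lost under quantile normalization (adjusted p = 0.0514). Fcgrt, the neonatal Fc receptor that recycles IgG, fell by 1.36 and by 1.2 (adjusted p = 0.0181 and 0.0343). The Fcgrt call was lost without wildtype marrow with Dox replicate 3 or wildtype esophageal replicate 2 in wildtype mice, and without any 1 of the 6 arrays compared in knockout mice (adjusted p up to 0.116). Fcrls, an Fc receptor-like scavenger, was higher by 0.78 in wildtype esophagus (adjusted p = 0.00697). In knockout esophagus its difference was 0.51 (limma, adjusted p = 0.0563).

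Of the 6 other ITAM chains and DAP10, only Cd79b, a chain of the B cell receptor, was called, at -1.01 in knockout esophagus (adjusted p = 0.0301). That call was lost under quantile normalization and without any 1 of 5 of the 6 arrays compared, marrow with Dox replicate 1 being the exception (adjusted p up to 0.132). In wildtype esophagus Cd79b differed by -0.83 (limma, adjusted p = 0.0557). Of 9 kinases of the Src, Syk and Tec families besides Syk, only Tec was called, at 1.84 higher in knockout esophagus (adjusted p = 0.0462). For both lists the background was 15.2% of all genes in wildtype and 10.5% in knockout mice. The Tec call was kept when knockout marrow without Dox replicate 1, 2 or 3 was left out and lost without any 1 of the other 14 arrays (adjusted p up to 0.140). In wildtype esophagus Tec differed by 1.63 (adjusted p = 0.0574), and without the outlying array it passed in both genotypes (adjusted p = 0.000141 and 5.03e-05). Src and Blk then passed in wildtype mice as well, at 0.29 and 0.40 (adjusted p = 0.0474 and 0.0361).

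Downstream of Syk, 2 of 29 adaptors and effectors were higher and 4 lower in wildtype esophagus, and 2 were higher and 2 lower in knockout esophagus. The background over all genes was 15.2% and 10.5%, so these counts are near it. Vav1, an exchange factor for Rac, read -1.46, -1.13 and -1.43 in wildtype and -0.75, -0.30 and -0.84 in knockout esophagus, against 0.16 to 0.36 and 0.68 to 0.93 in marrow with Dox. It fell by 1.61 and by 1.45 (adjusted p = 0.00557 and 0.00845). Fyb, an adaptor that links the cascade to integrins, rose by 1.09 and 1.15 (adjusted p = 0.00447 and 0.00256, and 0.0820 and 0.112 under quantile normalization). Lcp2 (SLP-76), a scaffold phosphorylated by Syk, was called in knockout esophagus alone, at 1.03 ± 0.19 (adjusted p = 0.00331). Its genotype by tissue interaction did not pass (0.88 ± 0.27, limma, adjusted p = 0.720).

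**Figure D5:**
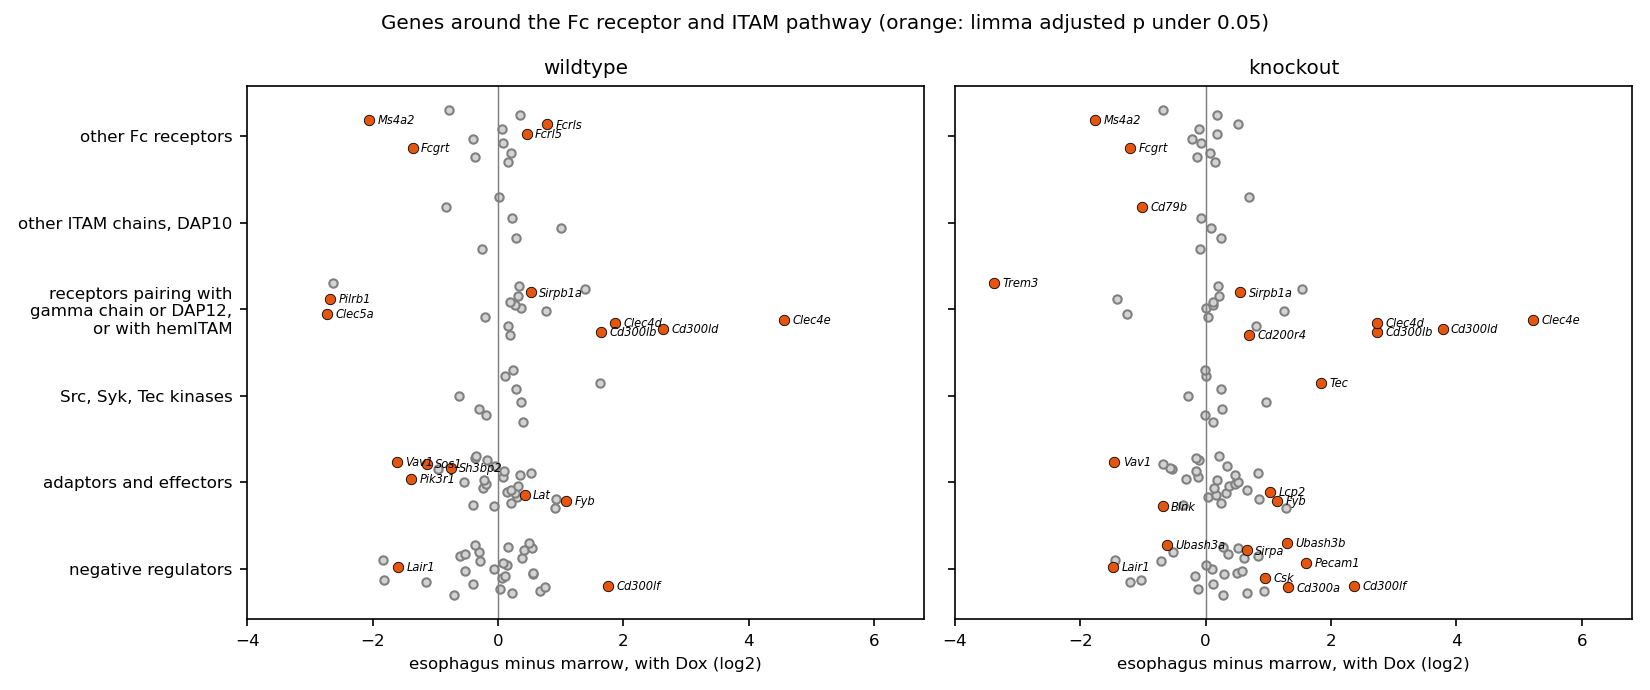
Difference between esophagus and marrow with Dox (log2) for the 103 measured pathway genes (points), grouped by role, in wildtype and knockout mice. The highest points, at 4.56 and 5.22, are Clec4e, among the receptors that pair with Fcer1g or DAP12.

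Among the negative regulators, 1 of 29 was called higher and 1 lower in wildtype esophagus (6.9%, against 15.2% of all genes), and 6 higher and 2 lower in knockout esophagus (27.6%, against 10.5%). With the outlying array left out the counts were 5 higher and 5 lower in wildtype and 10 higher and 4 lower in knockout esophagus (34.5% and 48.3%, against 36.5% and 18.8%). A difference between the genotypes in these counts was not tested. Cd300lf, an ITIM receptor, rose by 1.76 and 2.37 (adjusted p = 0.000585 and 3.96e-05). Lair1, an inhibitory collagen receptor, fell by 1.59 and by 1.48 (adjusted p = 0.0143 and 0.0209). Its call was lost without any 1 of 3 wildtype arrays (marrow with Dox replicate 1, esophageal replicates 2 and 3) and any 1 of 5 knockout arrays, esophageal replicate 2 being the exception (adjusted p up to 0.0821). Csk, the kinase that switches off Src family kinases, rose by 0.95 in knockout esophagus (adjusted p = 0.000458).

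Csk was also the 1 gene of the 103 called between genotypes in the esophagus, beside 0.347% of all genes. Without the outlying array or wildtype esophageal replicate 1 the count was 5, and without knockout marrow without Dox replicate 2 or wildtype esophageal replicate 3 it was 2. It read 0.88, 1.21 and 0.71 in knockout esophagus and 0.22, -0.01 and -0.20 in wildtype esophagus, while all marrow arrays lay between -0.31 and 0.01. The 3 knockout esophageal arrays were above the other 14. The difference was 0.93 ± 0.13 (limma, adjusted p = 0.0133). It passed with any 1 array left out (adjusted p up to 0.0452) and in 5 of 7 other settings, and was lost under quantile normalization and when only these groups were fitted (adjusted p up to 0.210). The genotype by tissue interaction was 0.88 ± 0.19, with an unadjusted p of 0.000367 by limma and an adjusted p of 0.371.

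In the marrow comparisons no pathway gene was called, beside 0% to 0.0225% of all genes. The smallest p between Dox and no Dox belonged to Fcgrt in both genotypes. It read 1.00, 1.01 and 1.43 in wildtype marrow with Dox against -0.26 and -0.74 without, and 1.22, 1.14 and 0.83 in knockout marrow with Dox against -0.38, 0.09 and -1.25 without. All arrays with Dox were above those without. The differences of 1.65 ± 0.37 and 1.58 ± 0.33 did not pass (limma, adjusted p = 0.291 and 0.125). Both passed under quantile normalization and with array weights, and the knockout difference also passed without knockout marrow without Dox replicate 2 (adjusted p = 0.0475). The weights of knockout marrow without Dox were 0.848, 4.32 and 0.0754, so the weighted knockout difference leans mostly on replicate 2 there. Without the outlying array neither difference passed (limma, adjusted p = 0.0774 and 0.302).

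On chromosome 1, 4 of the 7 genes lie near each other in the order Fcgr2b, Fcgr4, Fcgr3 and Fcer1g. Of 11 protein-coding genes from Fcgr2b to Fcer1g, 6 besides these 4 were measured. None of the 6 was called between esophagus and marrow with Dox in wildtype mice, and 1 was in knockout mice, Pcp4l1, at 0.49 higher (adjusted p = 0.0443). Over all genes 15.2% and 10.5% were called.

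The genes whose values ran most like each member over the 17 arrays were ranked by Pearson's r, as a description, with tissue shared by the points. For Syk they were Birc3 (r = 0.982), an inhibitor of apoptosis, Rnf19b (r = 0.980) and Skil (r = 0.979), and r was 0.981, 0.980 and 0.978 without the outlying array. For Fcgr1 they were Utp20 (r = 0.917), Uqcc3 (r = 0.915) and Ramp1 (r = 0.915). For Fcgr2b the first was Jak2 (r = 0.878), for Fcgr4 Rps28 (r = 0.846) and for Fcgr3 Olfr1158 (r = 0.752). For Tyrobp they were Atg3 (r = 0.990), Sub1 (r = 0.990) and Rnf130 (r = 0.988), and these fell to 0.818, 0.880 and 0.754 without the outlying array. The Fcer1g list, Rap1b (r = 0.922), Fnbp1 (r = 0.919) and Fth1 (r = 0.914), fell likewise to 0.780, 0.742 and 0.808. Among the 7 themselves, Tyrobp and Syk correlated at 0.522 over 17 arrays and 0.908 over 16, and Fcgr2b and Fcgr4 at -0.681 and -0.843.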

How the data were processed

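Eosinophil RNA was amplified and hybridised to 1-colour Affymetrix arrays, per the labels' protocols. The submitters' processing notes name Affymetrix Expression Console. The values used are the log2 values that the authors deposited for 17 arrays and 33793 probe sets. The log base is unstated and was taken as 2. In 97.08% of probe sets the middle pair of values was equal and opposite (tolerance 2e-05), which places 0 at the median of 18 arrays, 1 more than deposited. No source used states a normalization between arrays. The number of arrays limits the precision.

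Probe sets with 1 symbol (23521, with 1814 holding several and 8458 none) were averaged to 22180 genes, and 23328 of them were named through Entrez identifiers in a RefSeq table of GRCm38.p6, as were promoters. Groups came from titles. A single limma 3.58.1 fit (R 4.3.3) of 6 group means gave 9 contrasts, with Benjamini-Hochberg adjustment over 22180 genes at 0.05, two-sided, and errors are standard errors of that fit. On simulated data for the wildtype tissue comparison (22180 genes) it recovered 34% of log2 changes of 0.5, 64% of 1 and 88% of 2. The simulated noise was normal and independent between genes, and all changes were rises in wildtype esophagus. These rates therefore need not hold for the real arrays. The members and lists were chosen with earlier results of these data known. Named pathway genes are up to 8 per contrast with the smallest adjusted p, or 3 where none passed, with others added after their values were seen. Likeness names the 3 genes of highest r. Same-numbered arrays correlated at -0.1 to 0.231 in their deviations from group means. Differently numbered arrays were not compared in this way, so pairing is not excluded. Replicate numbers were not taken as pairing in the main fit. Alternatives were other scalings, weights, moderation, blocks, probe set choice, groups fitted, exact tests and each array left out.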

Additional observations from a re-analysis of the deposited data

How the results depend on the processing

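The Syk difference between esophagus and marrow with Dox passed in both genotypes under every alternative fit tried. Over the fits that kept every array it ran from 1.22 to 1.53 in wildtype and 1.02 to 1.68 in knockout mice. With 1 array left out it ran from 1.22 to 1.76 in wildtype and 1.63 to 1.71 in knockout mice. The exact test cannot pass at this size. Fcgr1 was lost under quantile normalization (adjusted p = 0.126 and 0.0872). Centred values have no level, so the planned floor on low values was not run. Signal over background could not be assessed. Over all alternatives other than leaving out an array, 769 values of single genes kept their direction and their side of the threshold, 18 changed sign, 35 were lost and 11 gained. None of the values that changed sign had passed the test. The causes of these changes were not tested.

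Between esophagus and marrow with Dox, quantile normalization called 1 of the 7 genes in each genotype, and fitting only the 2 groups compared called 4 in knockout mice. Quantile normalization called 3.62% of all genes higher and 5.61% lower in wildtype, and 5.08% and 7.14% in knockout mice. Pathway calls rose to 37 in wildtype and 44 in knockout mice with array weights, and to 37 in knockout mice with only the 2 groups fitted. Whether replicate numbers pair the arrays was not settled by their correlations. The replicate number as a block left the 7-gene count at 2 in each genotype. A block of genotype and number over the arrays with Dox gave 3 in each, adding Tyrobp, and 29 pathway genes in wildtype mice. Between genotypes in the esophagus, pathway calls were 0 under quantile normalization, 0 with only those groups fitted and 4 with array weights. For Dox against no Dox they were 1 under quantile normalization and 1 with array weights in wildtype mice, and 2 and 15 in knockout mice. The weighted knockout count leans mostly on marrow without Dox replicate 2 (weight 4.32, against 0.848 and 0.0754 in its group). Array weights gave 1 call for the genotype by tissue interaction. Other shares over all genes under these settings are not given, so a rise in these counts is not a result about the listed genes.

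Knockout minus wildtype in the esophagus changed sign for Fcgr1 under median centring (0.060), for Fcgr4 with array weights (-0.0077) and under quantile normalization for Fcer1g (-0.010) and Syk (-0.0039). In marrow with Dox it did so for Fcgr2b with array weights (-0.11) and under quantile normalization for Fcgr3 (0.061) and Fcgr4 (-0.023). In marrow without Dox, quantile normalization and array weights gave 0.56 and 0.44 for Fcer1g and 0.060 and 0.060 for Syk. For Dox against no Dox in wildtype mice, array weights gave 0.046 for Fcgr2b and -0.063 for Fcgr4. In knockout mice, array weights gave -0.49 for Fcgr1, -0.12 for Fcgr3 and -0.051 for Fcer1g, and quantile normalization gave -0.023 for Fcgr2b and -0.062 for Fcgr3. Weighted values of knockout marrow without Dox lean mostly on replicate 2, where Fcgr1 read 1.76.

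Leaving out each array in turn called 1 to 3 of the 7 genes between tissues in each genotype, 11 to 37 pathway genes in wildtype and 14 to 35 in knockout mice. It called 1 to 5 pathway genes between genotypes in the esophagus, 0 to 1 for Dox in knockout mice and 0 to 1 for the genotype by tissue interaction. Shares over all genes in these fits are given only between tissues without the outlying array. Signs of some members changed over the ranges with 1 array left out. Knockout minus wildtype in the esophagus ran from -0.20 to 0.17 for Fcgr1, -0.028 to 0.22 for Fcgr4 and -0.22 to 0.29 for Fcer1g. In marrow with Dox it ran from -0.10 to 0.26 for Fcgr1, -0.32 to 0.33 for Fcgr2b, -0.27 to 0.11 for Fcgr3, -0.14 to 0.25 for Fcgr4 and -0.13 to 0.12 for Fcer1g. In marrow without Dox it ran from -0.0076 to 1.13 for Fcgr1, -0.11 to 0.050 for Fcgr4, -0.70 to 0.37 for Fcer1g and -0.21 to 0.073 for Syk. Dox minus no Dox in wildtype mice ran from -0.38 to 0.27 for Fcgr2b, -0.68 to 0.096 for Fcgr3, -0.22 to 0.17 for Fcgr4 and -0.043 to 0.12 for Syk. In knockout mice it ran from -0.024 to 1.11 for Fcgr1, -0.076 to 0.15 for Fcgr3 and -0.029 to 0.14 for Fcgr4.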
